A study of Mus musculus with 8 samples.

Results

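Trap1a gave 12 of the 29555 peaks in 4 CLIP-seq libraries of mouse embryonic stem cells (mESCs), 3 in each library and 1 in each of its 3 exons. Peaks were taken as Trap1a peaks when their midpoint lay within the gene on its own strand, in the GENCODE annotation of build mm10. The gene was selected on these measurements: its strongest peak was present in all 4 libraries and stood 4th of the 3566 sites of that kind when they were ordered by the mean rank of their fold enrichment. Its place in that order is therefore a description and was not tested. Trap1a, gene ENSMUSG00000051257.3, lies on the plus strand at chrX:139333683-139338169.

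CLIP-seq recovers the RNA fragments that ultraviolet light has crosslinked to a protein, and the fragments are sequenced after immunoprecipitation. MBD5 and MBD6 belong to the family of proteins with a methyl-CpG-binding domain, and both associate with the Polycomb repressive deubiquitinase complex. Trap1a encodes P1A, an antigen first known from a mouse mastocytoma that cytotoxic T cells recognise. Its messenger RNA is known from placenta, testis and some tumours, and the protein is rich in aspartate and glutamate.

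The study compared RNA bound by the 2 proteins in lines of wild-type mESCs that stably overexpressed the coding sequence of human MBD5 or MBD6 with a 3XFlag tag, held under hygromycin B. All lines grew in serum medium with LIF, CHIR99021 and PD0325901, and were passaged 2 times on gelatin to remove feeder cells. There were 2 Flag-MBD5 and 2 Flag-MBD6 CLIP libraries, each with a peak list, and the 4 digested inputs were not used here. The sample characteristics name a Flag antibody and the extraction protocol an MBD6 antibody, and the tissue is given as embryos although the cell line is mESC. Nothing in the labels says how many clones a line came from. The overexpressed proteins are human, whereas the RNA is from mouse.

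The peak lists hold no read totals, so for every peak the number of reads at the summit, and the background rate there, were solved from its fold enrichment and p-value. The Flag-MBD5 lists had 5362 and 5388 peaks on an estimated 478790 and 500143 reads, and the Flag-MBD6 lists had 9218 and 9587 peaks on 983918 and 1111742 reads. Libraries of the same protein differed by less than sampling noise, with a chi-square per degree of freedom of 0.537 over 683 strong sites for Flag-MBD5 and 0.877 over 274 for Flag-MBD6. Each protein was therefore counted as 1 sample, and both library values are given without an SD or a test between the proteins. Intervals below cover counting error only. Of 20 embryonic stem cell marker genes 8 had a peak in all 4 libraries, against none of 8 trophoblast markers and 1 of 6 fibroblast feeder markers (Fn1), where 7.81% of 21924 protein-coding genes had one. A peak needs both RNA and binding, so these counts are not levels of expression, and more Trap1a RNA cannot be told apart from more binding per transcript.

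The spliced Trap1a transcript, ENSMUST00000054534.3, is 1178 nt long and its coding sequence has 224 codons. Exon 1 (chrX:139333683-139334407) holds the first 454 coding bases, exon 2 (chrX:139336822-139337050) the remaining 218, and exon 3 (chrX:139337946-139338169) lies wholly in the 3′ UTR. Aspartate and glutamate codons make up 76 of the 224 codons (33.9%). They include a run of 12 in a row in exon 1, from codon 83 to 94, and a run of 14 in exon 2, from codon 202 to 215. The sequences below are shown because each of the 2 coding peaks covers 1 of these runs. The first is the stretch of 150 nt ending at the median summit of the exon 1 peak, chrX:139334191-139334340 on the plus strand, in which the reads counted at that summit begin. The second is the coding part of exon 2 from the median 5′ end of its peak, chrX:139336835-139337039, and the third is the first 30 nt of the exon 3 peak, chrX:139337952-139337981. Capitals mark the in-frame aspartate and glutamate codons.
Exon 1 site: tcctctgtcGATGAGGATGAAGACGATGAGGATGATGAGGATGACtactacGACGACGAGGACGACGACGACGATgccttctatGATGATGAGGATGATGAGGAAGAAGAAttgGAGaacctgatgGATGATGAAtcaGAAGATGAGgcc
Exon 2 site: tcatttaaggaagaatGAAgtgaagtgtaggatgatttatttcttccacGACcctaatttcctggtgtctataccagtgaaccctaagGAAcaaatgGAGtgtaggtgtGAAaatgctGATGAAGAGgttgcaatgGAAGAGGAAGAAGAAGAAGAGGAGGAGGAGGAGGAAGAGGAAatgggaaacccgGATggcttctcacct
Exon 3 site: agcccagaagaaagaaatggacagcggaag

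The exon 1 peak began at the acidic run and the exon 2 peak began well before it. The 5′ ends of the exon 1 peak lay at 139334198, 139334206, 139334201 and 139334207 in the order Flag-MBD5 replicates 1 and 2 and Flag-MBD6 replicates 1 and 2, and the run of 12 acidic codons occupies chrX:139334200-139334235. All 4 ends therefore fell within 9 nt of each other. In exon 2 the ends lay at 139336837, 139336833, 139336834 and 139336837, whereas the run of 14 codons lies at chrX:139336971-139337012. Of the 150 nt in front of the exon 1 summit, 36 of 50 codons (72%) coded for aspartate or glutamate. In the corresponding 150 nt of exon 2, which end at 139336980, it was 11 of 49 (22.4%), and most of the acidic run there lay past the summit. The exon 1 window had 9 CpG dinucleotides and the exon 2 window had 1.

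RNase T1, the nuclease used, cuts RNA after G. At the exon 1 peak a G preceded the 5′ end in all 4 libraries. A C preceded it in all 4 at the exon 2 peak, and the exon 3 peak had C, G, C and G in the order above. Over the sites found in all 4 libraries, 75.4% of 13230 such ends followed a G.

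**Figure D1:**
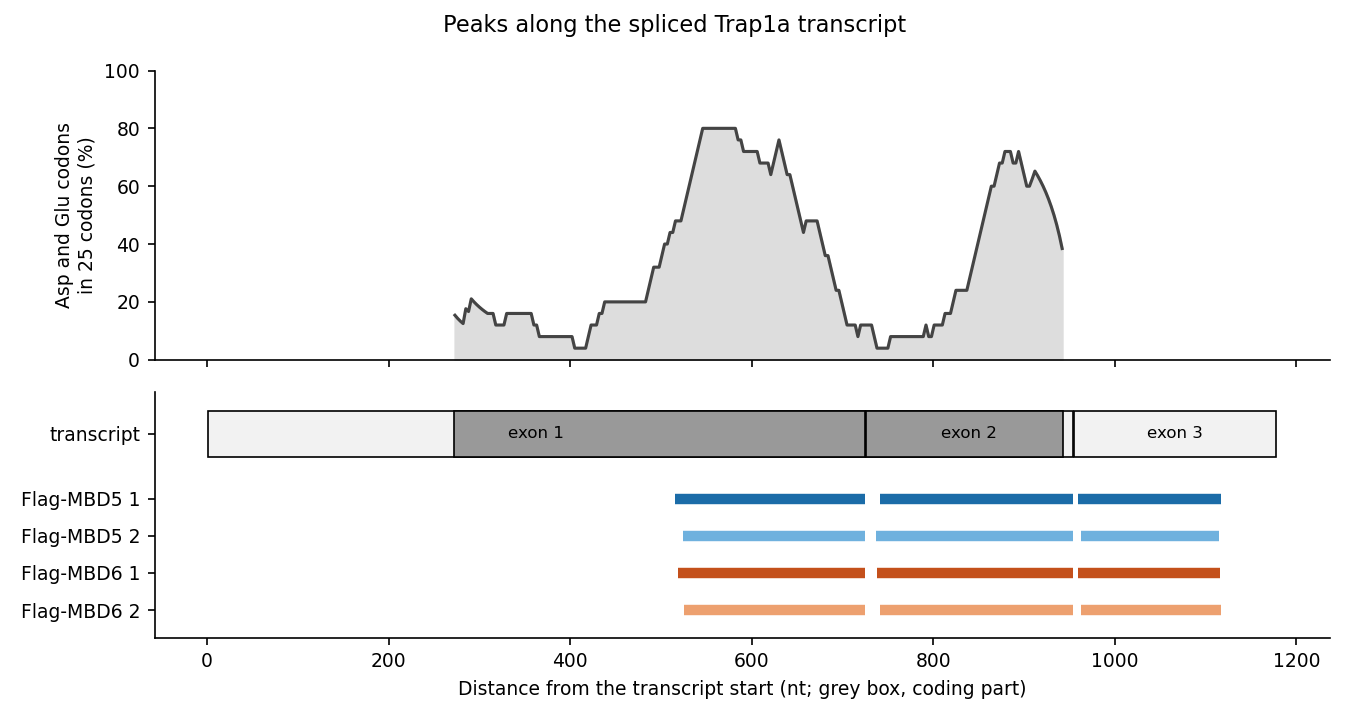
Peaks along the spliced Trap1a transcript. The upper panel plots the share of aspartate and glutamate codons in a running window of 25 codons (%), and the lower panel draws the 3 exons, the coding part in dark grey, and the part of each library's peaks within the exons, against the distance from the transcript start in nt. The exon 1 peaks began 516 to 525 nt from the start, at the rise to the first acidic maximum, and the exon 2 peaks began 737 to 741 nt from the start, ahead of the second maximum.

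The exon 1 peak was by far the strongest of the 3. It held 244 and 241 reads at its summit in the Flag-MBD5 pair, with 95% Poisson intervals of 214 to 277 and 212 to 273. The Flag-MBD6 pair gave 304 and 322 reads, with intervals of 271 to 340 and 288 to 359. The 2 Flag-MBD5 libraries gave nearly the same number, and so did the 2 Flag-MBD6 libraries. The exon 2 peak held 25, 26, 41 and 45 reads in the same order. The exon 3 peak held 17, 14, 21 and 28 reads. In every library the order was exon 1, exon 2, exon 3, although the counting intervals of exons 2 and 3 overlapped in all 4 libraries, whereas those of exon 1 stood apart.

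Exon 1 held 85.3%, 85.8%, 83.1% and 81.5% of the summit reads of the 3 peaks. Its reads were 9.76 and 9.27 times those of exon 2 for Flag-MBD5 and 7.41 and 7.16 times for Flag-MBD6. Over the pooled reads of each protein the first ratio was 1.31 times the second, with a 95% interval from 0.894 to 1.92, so a different balance between exons 1 and 2 was not detectable at this depth. For exon 1 against exon 3 the corresponding value was 1.22, from 0.752 to 2.02. The 3 peaks come from the same transcript, and the amount of that transcript is shared by them.

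The peaks also differed in shape. In exon 1 they were 288, 272, 279 and 276 bp wide and had their summit 135 to 140 nt after the 5′ end, close to the 150 bp to which reads were extended. The exon 2 peaks were 280 to 294 bp wide, with the summit 144 to 146 nt in. The exon 3 peaks were only 153 to 159 bp wide, which exceeds the length of a single extended read by 3 to 9 bp. The exon 2 and exon 3 peaks began 11 to 15 nt and 4 to 8 nt into their exons, and the reads were aligned without splicing, so fragments across an exon junction could not be placed. The part of the peaks past the end of exon 1 (70 to 78 bp) and exon 2 (65 to 80 bp) lay in the introns and can come from the extension.

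A site in every exon was rare. Of 23 transcripts of 3 exons with a coding site, Trap1a was the only one with a site found in all 4 libraries in each exon, a share of 4.35%. Among 1407 transcripts of 2 or more exons, 3 had this (0.213%).

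Fold enrichment, which divides the summit signal by the local background, gave a different picture of replicate agreement from the reads. The exon 1 peak had a fold enrichment of 147 in Flag-MBD5 replicate 1 but 60.5 in replicate 2, and Flag-MBD6 gave 123 and 91.2. The reads of the Flag-MBD5 libraries differed by 1.01 times, but their fold enrichment differed by 2.43 times. The background rate under the peak was 0.664 reads in Flag-MBD5 replicate 1 and 3.00 in replicate 2, and it was 1.47 and 2.54 in the Flag-MBD6 libraries. The lowest rate on that strand was 0.299, 0.312, 0.611 and 0.690 reads, so the background of the exon 1 peak stood 2.22, 9.62, 2.41 and 3.69 times above it.

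Such a gap between the Flag-MBD5 libraries was unusual. Only 30 of the 3566 sites (0.841%), Trap1a included, differed in fold enrichment by at least as much, and the median site differed by 1.21 times. Within the 100 best sites Trap1a was the only one. The background under exons 2 and 3 was close to the lowest rate, at 0.402, 0.312, 0.611 and 0.690 reads in exon 2, and at the lowest rate itself in exon 3. Their fold enrichment was 18.5, 20.6, 26.1 and 27.2 in exon 2 and 13.9, 11.4, 13.7 and 17.2 in exon 3. The methods of the paper do not say whether the inputs served as a control in peak calling. What sets the background rate in a library is therefore not given in the sources used here, and it was not tested.

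**Figure D2:**
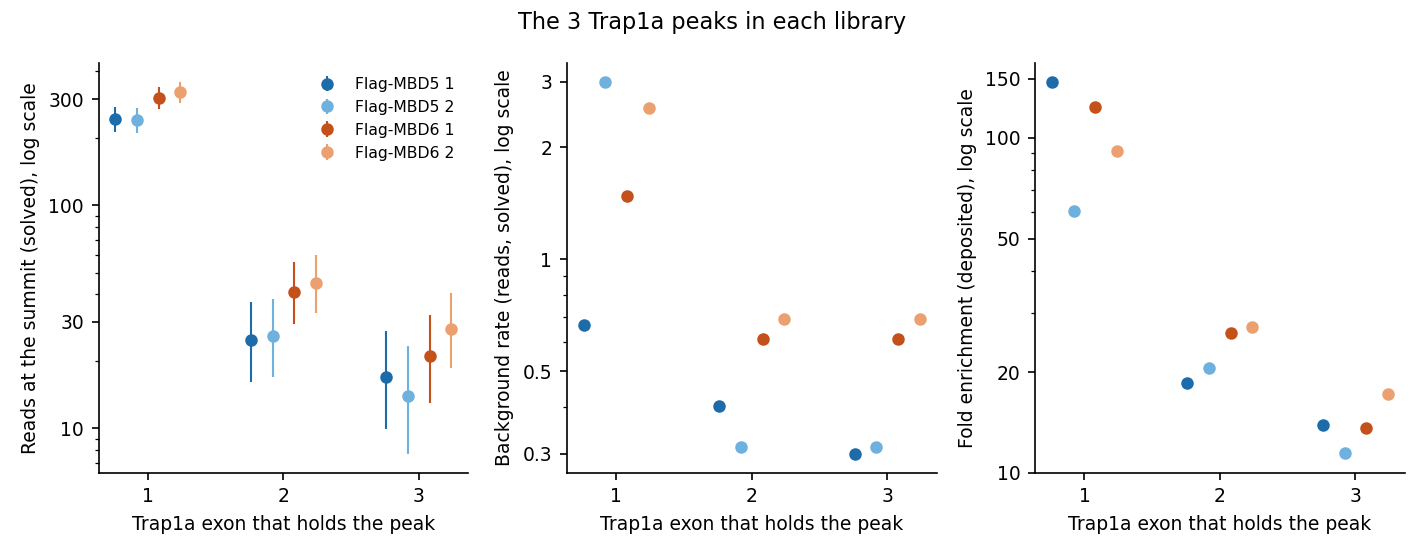
The 3 Trap1a peaks in each library. Panels give the solved reads at the summit with 95% Poisson intervals, the solved background rate in reads and the deposited fold enrichment, all on log axes, by exon and library. In exon 1 the Flag-MBD5 reads coincide at 244 and 241, whereas the background rates of 0.664 and 3.00 pull the fold enrichment apart to 147 and 60.5.

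The exon 1 site was the best site of chromosome X, among 118 found there in all 4 libraries, and the other exons lay far below it in the whole order, at places 611 and 1896. Of the 12074 merged regions of the 4 lists, 29.5% had a peak in all 4. Within the single libraries the exon 1 peak was 1st, 24th, 2nd and 9th by fold enrichment. By the p-value it was 1st in Flag-MBD5 replicate 1 and in both Flag-MBD6 libraries and 8th in Flag-MBD5 replicate 2, with −log10 p of 524, 359, 576 and 542. By reads it was 13th, 15th, 13th and 11th.

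In the order by fold enrichment, Trap1a had a mean rank of 9. The site just above it, the second Hsp90b1 site, had 5.5 and the site just below, in Nrd1, had 10.2. The 20 best sites lay in Hsp90b1 (2 sites) and Hsp90aa1, which encode HSP90 chaperones of the endoplasmic reticulum and the cytosol, and in Nrd1, which encodes the peptidase nardilysin, Pkm, a pyruvate kinase, and Eif3a (3 sites), a subunit of a translation initiation factor. Further sites lay in Ssr1, a subunit of the translocon-associated complex of the endoplasmic reticulum, Ncl, the nucleolar protein nucleolin, Rpl4, a ribosomal protein, Sfpq and Srrm1, which act in splicing, Usp8, a deubiquitinase, and Ddx10, an RNA helicase. The other 4 were in the processed pseudogenes Gm9892, Gm14681, Rps24-ps3 and Gm9531, whose reads can also match other copies.

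Trap1a had the most reads among these in every library, whereas by fold enrichment it was 1st only in Flag-MBD5 replicate 1. Its mean over the 4 libraries was 278 reads, above all 19 other sites, which ranged from 99.5 to 196 with a median of 131. Its mean background rate of 1.92 reads was also above that of all 19, which ranged from 0.409 to 1.40 with a median of 0.604. The sites were ordered by fold enrichment, and a site with a higher background needs more reads for the same fold enrichment. The 2 differences are therefore not independent. The mean width of the Trap1a site, 279 bp, was within the range of the other 19, 216 to 660 bp. In the whole set of sites 10 others had a higher mean number of reads.

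**Figure D3:**
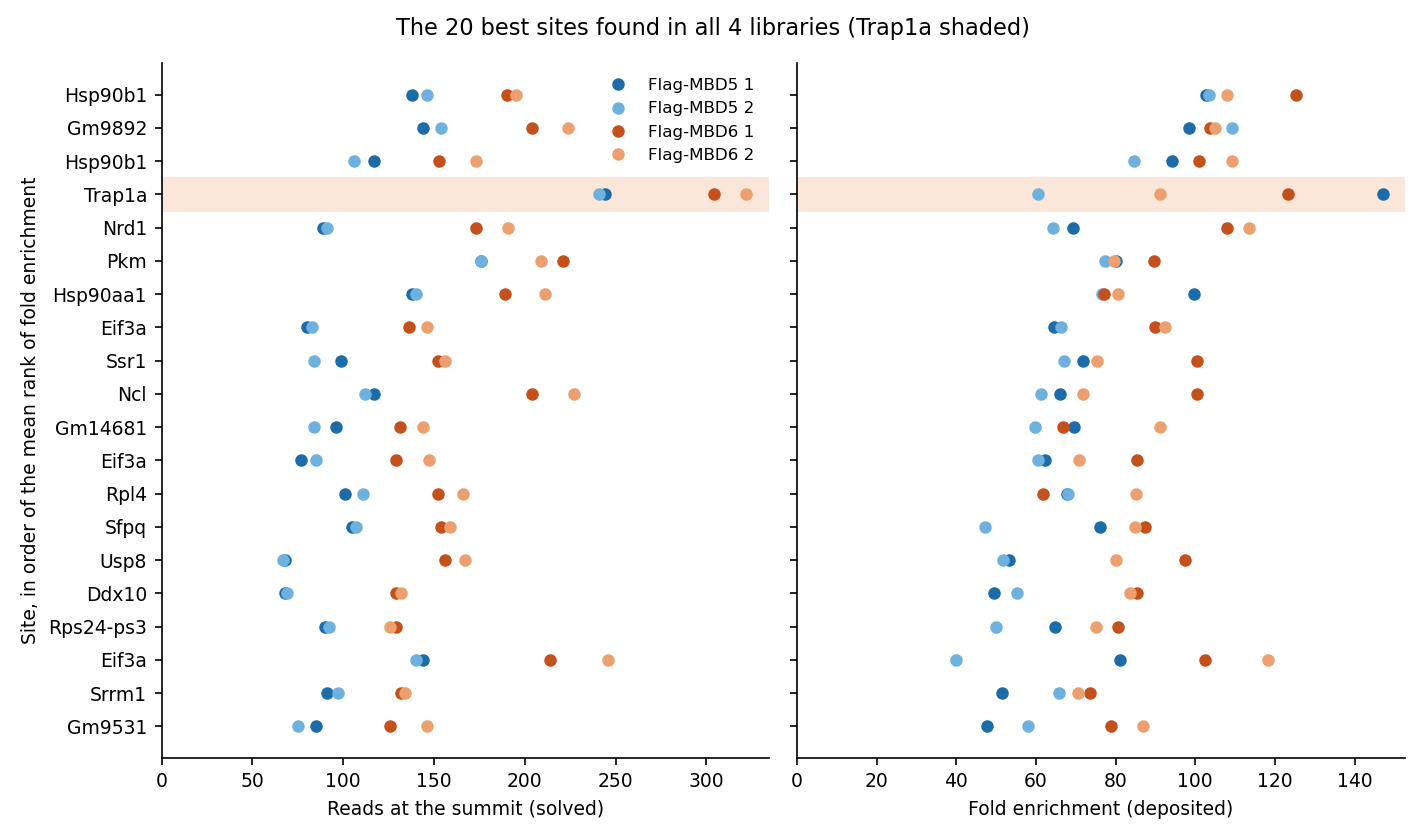
The 20 best sites found in all 4 libraries, in order of the mean rank of their fold enrichment, with Trap1a shaded. The left panel gives the solved reads at the summit and the right panel the deposited fold enrichment, 1 point per library. Trap1a has the most reads of the 20 in every library, from 241 to 322, and its fold enrichment runs from 60.5 to 147.

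The 5 sites with the most similar 4 values of fold enrichment, by Euclidean distance on the log2 scale over the 4 libraries, were both Hsp90b1 sites (distances 0.895 and 0.965), Hsp90aa1 (0.959), Pkm (1.07) and Gm9892 (1.08). Their fold enrichments in the 4 libraries lay between 76.6 and 125. Their reads lay between 106 and 224, below those of Trap1a in each library.

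Relative to the estimated depth, as reads per 1000000 reads (RPM), the exon 1 site was lower for Flag-MBD6 than for Flag-MBD5. Flag-MBD5 gave 510 and 482 RPM and Flag-MBD6 309 and 290 RPM, and the groups did not overlap. The ratio of Flag-MBD6 to Flag-MBD5 was 0.604, with a 95% interval from 0.535 to 0.680. Both Flag-MBD5 libraries were above both Flag-MBD6 libraries at 56.3% of all sites, however, and the median ratio over all sites was 0.792. With the libraries scaled by the median of the site ratios the Trap1a ratio was 0.763, and with fold enrichment in place of reads it was 1.03.

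The ratio at Trap1a was near that of sites of like strength. The median ratio was 0.756 at the 889 sites with under 20 mean reads, 0.864 from 20 to 40 reads, 0.781 from 40 to 80, 0.675 from 80 to 160, and 0.640 at the 59 sites with 160 or more. Of those 59 sites 23 had a lower ratio than Trap1a, and 94.9% had both Flag-MBD5 libraries above both Flag-MBD6 libraries. Within the 20 best sites only Pkm was lower, at 0.573. The exon 2 ratio was 0.788, with an interval from 0.551 to 1.14, and the exon 3 ratio was 0.733, from 0.462 to 1.20, and neither was distinguishable from 1 by counting error. The RPM values were 52.2, 52.0, 41.7 and 40.5 in exon 2 and 35.5, 28.0, 21.3 and 25.2 in exon 3.

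The authors let at most 5 reads begin at the same position. The 304 and 322 reads of the Flag-MBD6 libraries therefore began at no fewer than 61 and 65 positions, and the 244 and 241 of the Flag-MBD5 libraries at no fewer than 49 each. The 150 nt in which they begin have 51 positions that follow a G, which at 5 reads each allow 255 reads, above the Flag-MBD5 values and below the Flag-MBD6 values. All 150 positions allow 750 reads. The part of this limit in the lower ratio of strong sites was not tested.

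**Figure D4:**
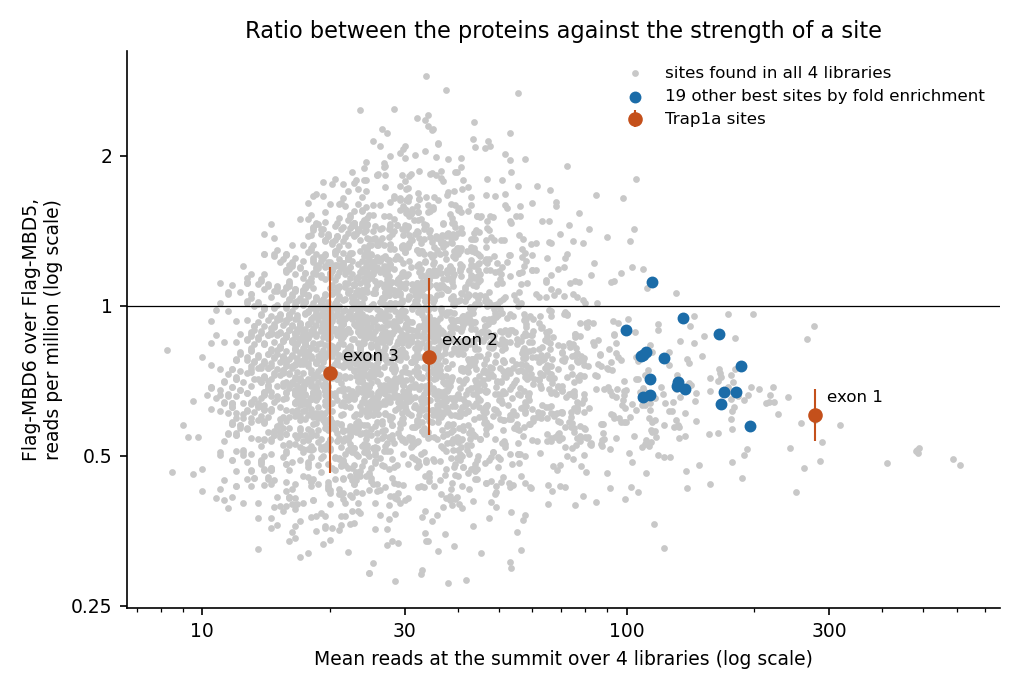
Ratio of Flag-MBD6 to Flag-MBD5 in RPM against the mean reads at the summit, both on log axes, for the 3566 sites found in all 4 libraries (grey), the 19 other best sites (blue) and the 3 Trap1a sites (orange, with 95% counting intervals). The exon 1 site, at 0.604 and 278 reads, lies among strong sites with similar ratios.

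The start of the exon 1 site was unlike that of the other strong sites in what it encodes. Its first 30 nt, from the median 5′ end at chrX:139334203-139334232, held 10 acidic codons of 10, while the whole coding sequence had 33.9%. Of the 19 other best sites 14 had a coding window, with a median of 27.8% acidic codons and a range from 0 to 70%. At 10 of these 14 the share was above that of the gene's own coding sequence, and over 2752 other sites with a coding window it was so at 65.1%, with a median share of 22.2%. The sequences of the Trap1a window and of the 6 best other coding sites by fold enrichment are set out for comparison, from GENCODE transcripts on build mm10, with in-frame aspartate and glutamate codons in capitals.
Trap1a, chrX:139334203-139334232, plus strand: GAGGATGAAGACGATGAGGATGATGAGGAT
Hsp90b1, chr10:86691719-86691748, minus strand: gtgGAGGAAGAAccaGAAGAAGAGcctGAA
Nrd1, chr4:109013575-109013604, plus strand: agacaggaaatgcaacaGATGAAGAGGAGG
Pkm, chr9:59668924-59668953, plus strand: tGAGgtgGAGctgaagaagggagccactct
Hsp90aa1, chr12:110694310-110694339, minus strand: AGaagGAAcgaGATaagGAAgtcagtGATG
Eif3a, chr19:60768863-60768892, minus strand: AGcgaGAAGAAagaGAAcgtgctGAGagag
Ssr1, chr13:37992064-37992093, minus strand: tcaaGATcctacaGAAGATGAAGAAatagt

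The Trap1a window held only codons of aspartate and glutamate, whereas each of the other 6 also held other codons. In Nrd1 the acidic codons stood together at the end of the window. The longest acidic run of Nrd1 is 27 codons, against 14 in Trap1a, so the contrast depends on where the window begins. Hsp90b1 had 7 acidic codons of 10, Ssr1 5 of 9, Nrd1, Hsp90aa1 and Eif3a 4 of 9 each, and Pkm 2 of 9. In base composition the Trap1a window was less set apart. It was 36.7% A, 43.3% G, 16.7% U and 3.33% C, and its A plus G of 80% was reached by 7 of the 18 other best sites with a window, whose median was 66.7%. Its single CpG was near their median of 0.5. Over all sites, 12.5% had at least as much A plus G and 0.291% of those with a coding window had as high a share of acidic codons.

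A fully acidic start occurred at 8 other sites, and these were weaker than Trap1a. Trap1a was selected for a strong site, so most other sites would be weaker whatever they encode. The strongest was in Anp32b, which encodes an acidic histone chaperone, with 76, 69, 116 and 126 reads. The others lay in Anp32e, Dek, Anapc15, Hap1, Cdk11b, Ubtf and Hax1, with mean reads from 17.8 in Hax1 to 80.2 in Ubtf. These 8 genes were named after their values were seen.

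**Figure D5:**
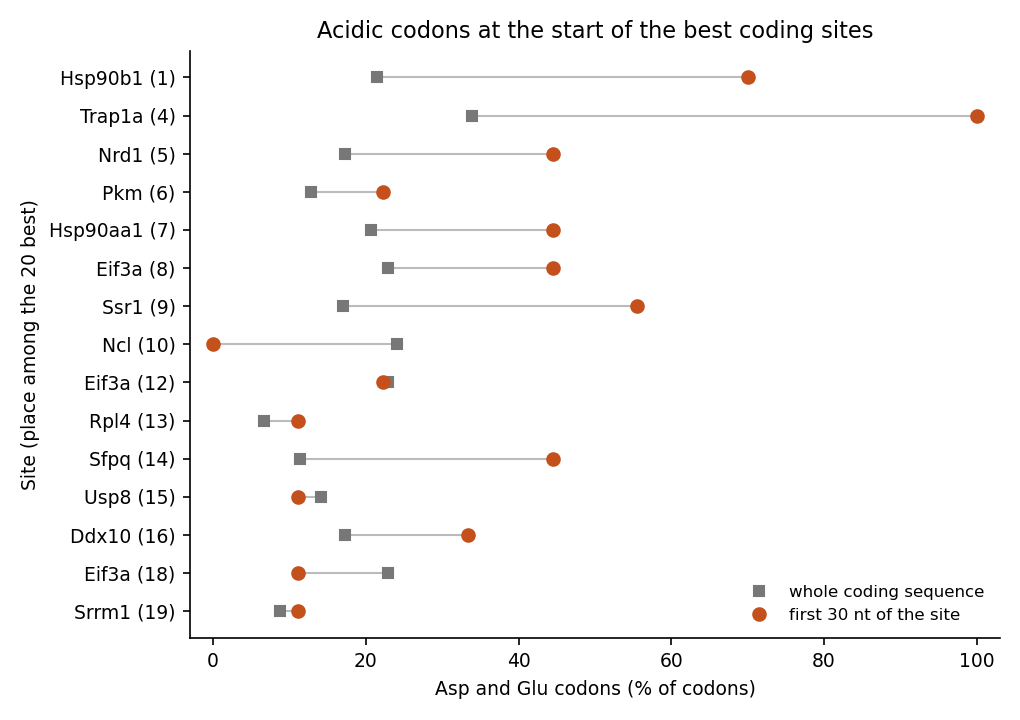
Share of aspartate and glutamate codons in the first 30 nt of a site (circles) and in the whole coding sequence of its gene (squares), in % of codons, for the 15 of the 20 best sites that have a coding window, with the place of each site in parentheses. Trap1a reaches 100% from 33.9%, and Ncl, at 0% from 24.0%, lies farthest the other way. Usp8 and the Eif3a sites at places 12 and 18 also lie below their whole coding sequence.

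The acidic stretch of Trap1a is among the densest that mouse genes encode, and other genes with such stretches differed in whether they had a peak. The densest 50 codons of Trap1a, from codon 83 to 132, held 39 acidic ones, and 18 other genes of 21750 with at least 50 codons reached that number. Of these 18 genes, 6 had a peak in all 4 libraries, 1 had peaks in 3 libraries and 11 had none, where 7.81% of protein-coding genes had a peak in all 4. Of the 319 genes with a run of at least 10 acidic codons, 111 (34.8%) had a peak in all 4 libraries, Trap1a included. In all 6 a site found in all 4 libraries lay over the densest 50 codons themselves. These were Nrd1, Anp32b, Set, which encodes a histone chaperone, Las1l, which acts in ribosome assembly, Ythdc1, a reader of methylated adenine in RNA, and Pelp1, a coregulator of nuclear receptors. The reads at those sites ranged from 36 in Las1l to 191 in Nrd1, below those of Trap1a in each library, which was selected for a strong site. The 11 genes without a peak included Rtl1, with 50 acidic codons of 50, and Myt1, with 46, and whether these genes were transcribed in the cells was not measured here.

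The tumour antigen and X-linked lists held few genes with a peak in all 4 libraries. Of 31 annotated genes of the tumour antigen and cancer-testis list, which mixes genes of the germ line with broadly expressed ones such as Cep55 and Maged1, only Cep55 had a peak in all 4 libraries (3.23%, against 7.81% of protein-coding genes). Its best site held 25, 22, 85 and 90 reads. Maged1 had a peak in 3 libraries and Sycp1 in both Flag-MBD6 libraries, and the MAGE-A and MAGE-B genes of the list had none. Of 18 X-linked genes of placenta, germ line or early embryo, among them Rhox5, Xlr3a and Plac1, none had a peak in all 4 libraries, against the same 7.81%. Taf7l had 1 peak in Flag-MBD6 replicate 2. Both lists are small, and a difference from the share of all protein-coding genes was not tested.

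In the list of genes with acidic stretches 23 of 25 had a peak in all 4 libraries (92%, against 7.81% of protein-coding genes). This list was drawn up with the best sites of these data known. Its high count was therefore set by that choice and is not independent evidence about such genes. Among its genes Calr, which encodes the calcium-binding chaperone calreticulin, had a site with nearly the reads of Trap1a, 240, 251, 305 and 313, and Hsp90ab1, a cytosolic HSP90, had 282, 288, 347 and 354. Their fold enrichment was 68.3, 82.1, 88.6 and 55.2 for Hsp90ab1 and 68.2, 78.6, 62.4 and 45.0 for Calr. Both sites were named here after their values were seen.

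No peak lay near Trap1a outside the gene. Within 500 kb on either side there was no other peak in any library on either strand, although the libraries held 177, 169, 295 and 308 peaks on chromosome X. The closest annotated genes are the processed pseudogenes Gm15002 and Gm8061, 76071 and 20298 bp away, and the closest protein-coding genes are Mum1l1, 95347 bp before it, and D330045A20Rik, 142197 bp after it.

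Most runs of 30 nt from the sites matched no transcript of another gene. Of the 150 runs of 30 nt that begin in the exon 1 window, 23 (15.3%) matched a transcript of another gene with up to 3 mismatches, the number the authors allowed, and none matched without a mismatch. In exon 2 it was 17 of 150, with 9 exact matches and 14 that reached 10 or more genes, and in exon 3 none of 148. The match was made to annotated transcripts, not to the genome. The length of the deposited reads is not known beyond the authors' minimum, which is shorter than 30 nt. Matches of shorter reads were not examined, so the share of reads that belong to Trap1a alone is not known.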

How the data were processed

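Peak lists of 2 Flag-MBD5 and 2 Flag-MBD6 CLIP libraries were analysed. The authors collapsed the reads, discarded those from ribosomal RNA, aligned the others to mm10 with Bowtie 1.0.0 (up to 3 mismatches and 10 loci), split strands with SAMtools 1.16.1 and called peaks per library with MACS2 (extension 150 bp, up to 5 duplicates, genome size 130000000, q under 0.01). Each deposited peak has a fold enrichment (a ratio to local background), −log10 values of its p and q from MACS2, a summit offset and a score, which was the whole part of 10 times −log10 q in 99.96% to 100% of a library's peaks.

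Whole reads k and a Poisson rate were solved from fold = (k + 1)/(rate + 1) and P(X > k), and matched −log10 p within 0.002 for 100% of peaks. Depth was the lowest rate per strand times genome size over extension, an estimate and not a count of fragments. Peaks overlapping by 1 bp or more on a strand formed sites. Windows were 30 nt from the median 5′ end in GENCODE M21 transcripts, moved inward by up to 10 nt to reach coding sequence, and 3442 of 3566 sites had one. Named genes were Trap1a, the 20 best sites, the 5 nearest in fold enrichment, neighbouring genes and list members with a peak. Members and lists were chosen with earlier results of these data known. Python 3.11.15, scipy 1.17.1 and BWA were used, and the solution was tested on simulated data. Alternatives changed thresholds, assignment, ranking, scaling, window and libraries.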

Additional observations from a re-analysis of the deposited data

How the results depend on the processing

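The 3 peaks per library, the place of the exon 1 site and its ratio were recomputed under the alternatives. So were the acidic window of that site and the median acidic share of the other best sites. This gave 42 values, 1 of them with a window chosen after seeing the data. Of these, 39 were counted as unchanged, but the count is no measure of robustness. The limits of 5 on −log10 q and 4 on fold enrichment could not remove a Trap1a peak, as the weakest had 15.7 and 11.4. The place was allowed a spread of 10.6, the SD of its library ranks, so place 12 passed. Acidic shares of 90% in 60 nt and 76% in 150 nt also passed, although 1 window has no spread. The ratio of Flag-MBD6 to Flag-MBD5 of 0.604 moved to 0.763 when the libraries were scaled by the median of the site ratios, and changed sides to 1.03 with fold enrichment in place of reads, where the background rate of 3.00 in Flag-MBD5 replicate 2 enters. It was 0.604 with the replicate block, the mean of the log2 ratios of libraries with the same number, and the labels do not say that a number marks a shared batch. The acidic share of 100% fell to 44.9% in 150 nt centred on the summit, a window that takes in bases after the acidic stretch, and was 72% in 150 nt that end there.

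Without 1 library in turn the number of peaks stayed at 3, the place lay from 2 (without Flag-MBD5 replicate 2) to 5, the ratio from 0.584 to 0.623, and the acidic share stayed at 100%. The place was 1 by p-value and 12 by reads. Depth limits exons 2 and 3 most, where 14 to 45 reads per library leave wide intervals, and a gene without a peak may lack RNA, binding or depth. The strand and gene assignment did not alter the 3 peaks per library.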
